A study of Oryctolagus cuniculus with 10 samples.

Results

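Of 29587 rabbit genes in the series, 119 formed the set described here: genes whose RNA was at least 4 times as abundant, on a scale with a pseudocount, in chondrogenic pellets as in the cells that went into them, on each of 5 growth substrates. The rule asked for a mean of at least 1 RPKM (reads scaled to gene length and to the library's counted reads) over 10 libraries, which 12244 genes met, and for a pellet minus cell difference of at least 2 in log2(RPKM + 1) in every substrate. The members were thus chosen by their pellet minus cell differences, so the rise itself is a description and was not tested. The cells came from New Zealand White rabbits and were stem cells of the infrapatellar fat pad, a fat cushion below the kneecap. They were expanded on tissue culture plastic or on a decellularized extracellular matrix (dECM), the matrix left after the human cells that laid it down were removed. The matrix makers were adipose stem cells (ASC), dermal fibroblasts (DF), synovium-derived stem cells (SDSC) and urine stem cells (USC). Each substrate gave 1 library of expanded cells and 1 library of pellets after 21 days in chondrogenic induction medium. No substrate was replicated within a stage, and the labels do not say how many rabbits were used or whether their cells were pooled. A mean ± SD below is therefore over 5 substrates, not over repeated cultures.

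Pellet culture packs mesenchymal cells densely, as in the condensations that precede cartilage in the embryo, and chondrogenic medium drives them to make cartilage matrix. In textbook accounts the transcription factor SOX9 switches on type II collagen, aggrecan and the other matrix genes, while stem cell and fibroblast programmes recede. The deposited table lists genes by Ensembl identifier without names, and none matched the name table used here. It is thus not known which of the 119 genes encode cartilage matrix, and the label of chondrogenic genes could not be checked against markers. The pellet is bulk RNA, in which more cells of a type and more RNA per cell cannot be told apart.

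Counted reads ranged from 14021696 (ASC dECM cells) to 19828548 (SDSC dECM cells) per library, and the pellet libraries from 15012222 (ASC dECM) to 19393763 (DF dECM). The 119 genes had a median of 32 reads per gene and library in cells and of 887 in pellets. In pellets, 103 of them had at least 100 reads in every library, and the lowest count of any was 13. In cells, 69 had at least 10 reads in every library, 30 had 1 to 9 reads in their lowest library, and 20 had no read in at least 1 library. Counting intervals cover counting error only.

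Most members were low in cells, which a rule on the rise favours, and 18 of 119 had a cell mean of 10 RPKM or more. Their median in cells lay between 0.889 RPKM (SDSC dECM) and 1.10 RPKM (DF dECM), against a median of 11.5 to 12.0 RPKM for all tested genes in the same libraries. In pellets their median lay between 21.2 RPKM (SDSC dECM) and 33.1 RPKM (ASC dECM), against 13.0 to 15.0 RPKM for all tested genes. By mean level in cells, 52 members were below 1 RPKM, 49 between 1 and 10, 17 between 10 and 100, and 1 above 100. By mean level in pellets, none was below 1 RPKM, 16 were between 1 and 10, 76 between 10 and 100, and 27 above 100. Only 1 member was among the 1000 most abundant genes of each cell library. From 23 (SDSC dECM) to 28 (ASC dECM) were among the 1000 most abundant in the pellets.

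**Figure D1:**
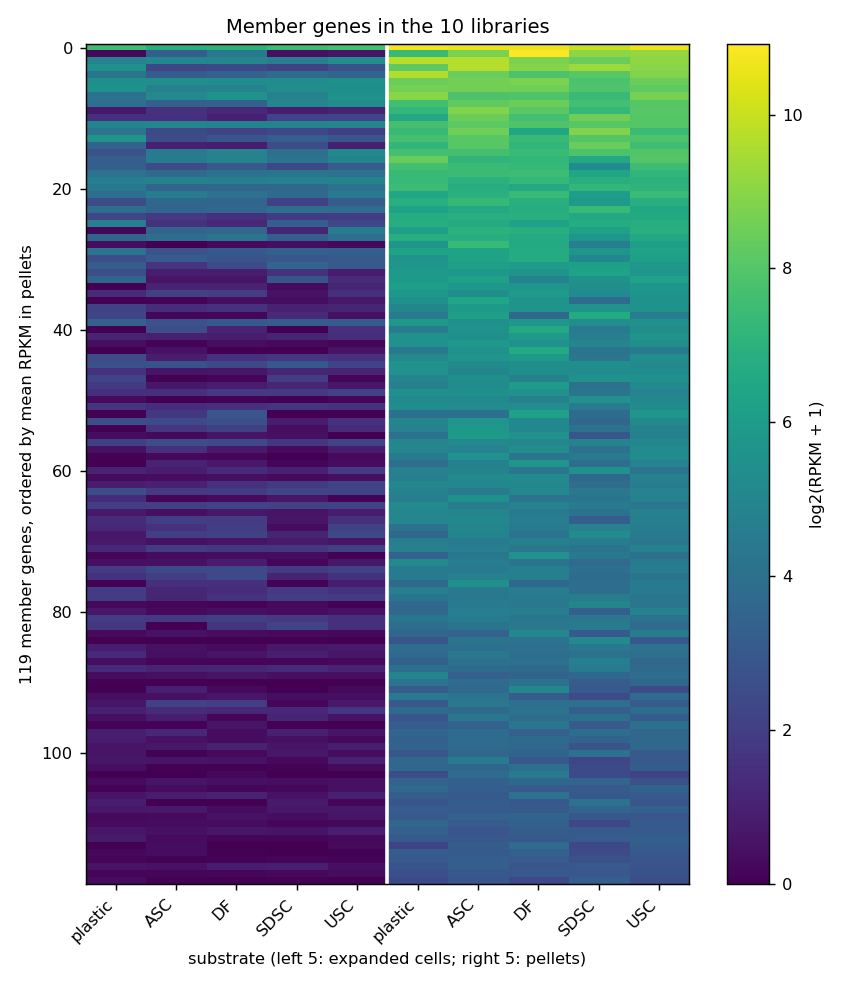
Level of the 119 members (rows, ordered by mean RPKM in pellets) in each of 10 libraries (columns, 5 of cells left of the white line and 5 of pellets right of it), as log2(RPKM + 1) by colour. Every row is darker in its cell libraries than in the pellet of the same substrate, by at least 2 log2 units as the rule requires.

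Together the members held 0.124% ± 0.0160 of a library's RPKM in cells and 1.94% ± 0.187 in pellets (SD, n = 5 substrates each). The pellet share was 1.9004% after plastic, 2.11% after ASC dECM, 2.04% after DF dECM, 1.64% after SDSC dECM and 2.01% after USC dECM. SDSC dECM gave the lowest share, and the lowest pellet share was far above the highest cell share of 0.145% (plastic). Counted as reads instead of RPKM, the shares were 0.169% in cells and 2.40% in pellets. The set was top-heavy at both stages. The 10 most abundant members of a pellet library held from 49.95% (USC dECM) to 54.8% (plastic) of the members' RPKM there. In cell libraries the 10 most abundant members held more, from 59.8% (DF dECM) to 65.5% (USC dECM).

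The most abundant member, ENSOCUG00000016048, stood at 181 RPKM (plastic), 113 (ASC), 130 (DF), 170 (SDSC) and 199.7 (USC) in cells. In pellets it stood at 1653, 1525, 1555, 1000.4 and 1571 RPKM in the same order. The SDSC dECM pellet was the low one, below a group of 4 that ran from 1525 to 1653 RPKM. Its means were 159 ± 36.4 RPKM in cells and 1461 ± 262 RPKM in pellets (SD, n = 5 substrates). Its lowest count in any cell library was 3485 reads.

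ENSOCUG00000016101 had the largest smallest rise, a log2 difference of at least 6.43 in every substrate. In cells it had 0.639 RPKM on plastic, 1.903 on ASC, 1.37 on DF, 0.782 on SDSC and 1.10 on USC dECM, from 27 to 62 reads each. In pellets it reached 147, 467, 279, 153 and 267 RPKM in the same order. Plastic was lowest and ASC dECM highest at both stages. The 27 reads on plastic have a 95% Poisson interval of 17.8 to 39.3 reads, so the baseline of this gene is the less certain side of its rise.

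One member had no read in any of the 5 cell libraries. Its pellets held 6.65 RPKM (plastic), 17.1 (ASC), 16.9 (DF), 34.5 (SDSC) and 6.997 (USC), from 131 to 740 reads. Set against a floor of 3 reads per cell library, the pellet level was at least 45.1-fold higher after plastic and at least 255-fold higher after SDSC dECM. The SDSC dECM pellet was the highest of the 5. This member was singled out after its values were seen. For the 69 members with at least 10 reads in every cell library, a plain RPKM ratio can be formed, without a pseudocount. Their smallest ratio over the 5 substrates had a median of 6.98-fold and ranged from 4.24-fold to 196-fold, and the largest ratio in any substrate was 490-fold.

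**Figure D2:**
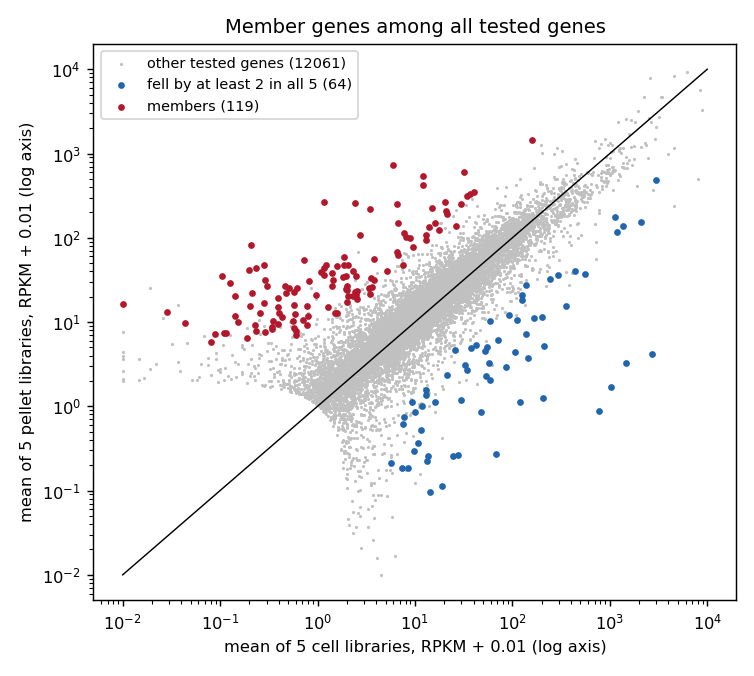
Mean RPKM over 5 pellet libraries against mean RPKM over 5 cell libraries for each tested gene, both on log axes with 0.01 added; red points are the 119 members, blue points the 64 genes that fell by at least 2 in all 5 substrates, grey points the other tested genes, and the line marks equal levels. Members start between 0 and 159 RPKM in cells and reach 5.78 to 1461 RPKM in pellets.

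The members' median rise, on the log2 scale, was 3.09 after plastic, 3.52 after ASC, 3.49 after DF, 3.13 after SDSC and 3.06 after USC dECM. The rule demands a rise of at least 2 in each substrate, so the likeness of these medians is partly set by the selection. All tested genes had a median between 0.12 (SDSC) and 0.24 (DF). The members are 0.972% of the tested genes, and the same rule in the other direction gave 64 genes, 0.523%. In single substrates the share of tested genes past a rise of 2 was 2.66% (plastic), 2.87% (ASC), 2.9% (DF), 2.37% (SDSC) and 2.57% (USC). The largest rise of a member was most often after ASC dECM (40 members) and least often after USC dECM (5). The smallest rise was most often after SDSC dECM (39) or plastic (37). These counts rank the differences that the rule used and have no share over all tested genes beside them. They are thus not read as a trait of a substrate. By level in cells, members below 1 RPKM had a median rise of 3.32, those from 1 to 10 RPKM of 3.65 and those of 10 RPKM or more of 3.07.

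At the threshold, the 3 members just inside had smallest rises of 2.005, 2.007 and 2.01, and the 3 genes just outside 1.998, 1.99 and 1.99. The mean filter of 1 RPKM removed 0 genes, since a rise of that size in all 5 pellets already requires a higher mean, and the lowest mean of a member was 2.92 RPKM. With libraries rescaled by median of ratios, the median change of all tested genes moved by -0.18, from 0.18 to near 0, and the members' median rise was 3.11 instead of 3.24.

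Pellets of different substrates differed more in the members than in most genes. Over the 5 pellets, a member spanned a median of 1.08 log2 units from lowest to highest, against 0.47 for all tested genes and 0.45 for the 8881 tested genes at or above the members' lowest pellet mean. A span of at least 1 was found in 63 members (52.9%) against 9.92% of tested genes, and a span of at least 2 in 16 members (13.4%) against 1.35%. The 64 falling genes also spanned more than tested genes in pellets, with a median of 0.77 and 37.5% at 1 or more. Without the SDSC dECM pellet, 36 members spanned at least 1, against 4.89% of tested genes. Cell libraries spanned a median of 0.79 in the members, 1.22 in the falling genes and 0.49 in all tested genes. These are descriptions of 1 library per substrate.

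The widest span belonged to the second most abundant member. It had 162 RPKM after plastic, 426 after ASC, 1933 after DF, 517 after SDSC and 568 after USC dECM, an 11.9-fold range. In cells it was at 0.167 RPKM (plastic), 8.86 (ASC), 20.0 (DF), 0.358 (SDSC) and 0.550 (USC), so DF dECM was highest at both stages. The next widest went from 6.67 RPKM after SDSC dECM and 16.5 after plastic to 46.6 after DF and 61.5 after ASC dECM. At the other end, the most even member lay between 28.6 RPKM (SDSC) and 34.6 RPKM (ASC), a 1.21-fold range. These 3 members were picked by their span. A different member, singled out after its values were seen for its even level in cells, held 28.9 to 30.5 RPKM in all 5 cell libraries and 208 to 283 RPKM in the pellets.

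The SDSC dECM pellet was the lowest of the 5 for 59 of 119 members (49.6%), against 38.7% of tested genes. Plastic was lowest for 26 members (21.8%, against 15.1% of tested genes), DF for 17 (14.3%, against 8.95%), USC for 13 (10.9%, against 13.999%) and ASC for 4 (3.36%, against 23.3%). DF was highest for 34 members (28.6%, against 21.2% of tested genes) and SDSC for 22 (18.5%, against 22.0%). ASC was highest for 30, plastic for 27 and USC for 6. Plastic pellets were highest for 37.8% of all tested genes and for 22.7% of members, and ASC pellets for 10.2% of tested genes and 25.2% of members. USC pellets were highest in 5.04% of members and 8.76% of tested genes.

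Against the mean of the other 4 pellets, members stood at a median of -0.41 log2 units in the SDSC dECM pellet, where all tested genes stood at -0.08 and the 64 falling genes at 0.43. ASC dECM pellets had a median of 0.21 in members, -0.05 in tested genes and -0.20 in falling genes. Plastic (-0.01), DF (0.17) and USC (0.01) pellets lay between. With median-of-ratios scaling the SDSC value was -0.30 in members and 0.02 in tested genes. The library held 19184172 reads, within the range of the other pellets. The rule demands a rise of at least 2 there too, which keeps genes that failed to rise after SDSC dECM out of the set.

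**Figure D3:**
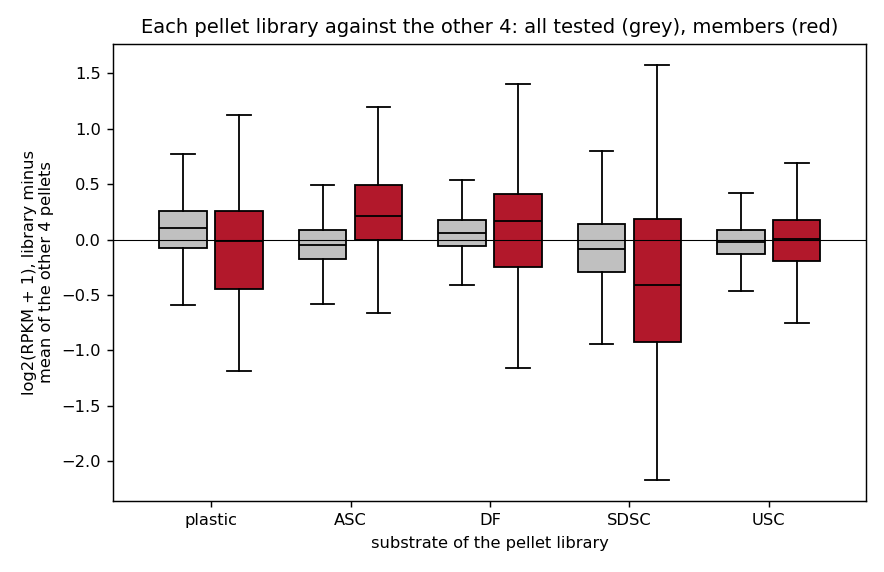
Difference in log2(RPKM + 1) between each pellet library and the mean of the other 4, for all 12244 tested genes (grey) and the 119 members (red); boxes span the quartiles, lines mark medians, whiskers reach the last value within 1.5 box heights and points beyond them are not drawn. The red SDSC box lies lowest (median -0.41) and the red ASC box highest (median 0.21).

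SDSC dECM pellets were tested against the other 4 pellets with limma over all genes. The contrast was chosen because earlier results of these data had shown this library apart from the others. Its p-values are thus not independent support for a difference, and the rule also used the pellet values. By adjusted p, 1 member was lower and 0 were higher, where 0.0898% of tested genes were called lower, 0.098% higher and 0.188% in all. At an unadjusted p under 0.05, 34 members (28.6%) were lower against 9.85% of tested genes, and 9 (7.56%) were higher against 3.94%. Of the 64 falling genes, 0 were lower and 9 higher at that level. The 34 members ranged from 30 to 43 when each other substrate was left out, and the share of tested genes from 6.31% to 11.1%. The comparison sets 1 library against 4, and the single library has no replicate behind it. Each gene had 1 spread over both stages. The median SD over the substrates was 0.45 in pellets and 0.30 in cells for members, and 0.19 and 0.20 for all tested genes. The shared spread can thus understate the members' spread in pellets. Their share of small p-values is therefore not strictly comparable with that of tested genes.

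The member called lower, ENSOCUG00000021357, had 38.5 RPKM in the SDSC dECM pellet and 200.3 (plastic), 171 (ASC), 153 (DF) and 184 (USC) in the others. The SDSC pellet stood apart from a tight group of 4, with a log2 difference of -2.17 and an SE of 0.27 (limma, adjusted p = 0.0417). The adjusted p ran from 0.0190 to 0.202 over the alternatives tried, and 5 of 11 did not call it: leaving out ASC, DF or USC, a variance prior without a trend (0.0511) and limma-voom on recovered reads (0.0619). The gene model is 61 bases long, so the values rest on few reads, 45 in the SDSC pellet (95% Poisson interval 32.8 to 60.2) and 157 to 215 in the others. In cells it had 4 to 10 reads per library. Without the plastic libraries 8 members were called lower, against 62 of all tested genes.

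Altogether 6 members (5.04%) stood at least 1 log2 unit below each of the other 4 pellets in the SDSC dECM pellet, against 0.621% of tested genes, and none stood that far above (0.359%). One of them had 13.3 RPKM after SDSC dECM and 44.1 (plastic), 84.2 (ASC), 48.6 (DF) and 48.1 (USC) elsewhere, from cell levels of 0.0559 to 0.606 RPKM. DF dECM pellets stood that far above all others in 4 members (3.36%, against 0.18%). Plastic pellets stood that far below all others in 2 members (0.253% of tested genes) and above in 1 (0.049%). No member set ASC pellets (0.049% of tested genes below, 0.00817% above) or USC pellets (0.0408% and 0.0245%) apart in this way, or DF pellets below the others (0.0245%).

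Pellets made from dECM cells were compared with the plastic pellet to ask whether levels in pellets differ with the matrix used for expansion. limma called 0 members by adjusted p, and 0 of all tested genes, with a smallest adjusted p of 0.639. At an unadjusted p under 0.05 there were 13 members (10.9%, against 7.33% of tested genes), 6 higher after dECM against 2.14% of tested genes and 7 lower against 5.19%. On recovered reads, limma-voom likewise called 0 members. The mean of the 4 dECMs lay above plastic in 61 members and below in 58, with a median difference of 0.01, where all tested genes had -0.10. Every dECM pellet was above the plastic pellet in 26 members (21.8%, against 14.8% of tested genes) and below it in 27 (22.7%, against 37.8%). Plastic is 1 library, assumed to vary like the others. The spread of each gene was again shared with the cells, where members varied less than in pellets.

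By single libraries, members at least 1 log2 unit away from the plastic pellet numbered 18 higher and 4 lower after ASC dECM, 16 and 6 after DF, 14 and 20 after SDSC, and 5 and 1 after USC dECM. The shares in all tested genes were 1.48% and 0.776% (ASC), 1.54% and 0.849% (DF), 2.67% and 2.95% (SDSC), and 0.792% and 0.449% (USC). SDSC dECM was the only one of the 4 with more members lower than higher on the deposited scale, and with median-of-ratios scaling its counts were equal, 16 higher and 16 lower. USC dECM pellets had the fewest members that far from plastic. The member with the smallest p in this contrast, named by rank and not called, had 29.5 RPKM after plastic and 9.15 (ASC), 10.2 (DF), 12.0 (SDSC) and 13.9 (USC) after dECM. Plastic was the high one, by 1.32 on the log2 scale (SE 0.21, limma, adjusted p = 0.639).

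In expanded cells, where most members were low, 4 members were called between dECM and plastic. limma called 1 member higher on dECM and 3 lower, where 0.441% of tested genes were called higher, 1.36% lower and 1.8% in all. At an unadjusted p under 0.05, 7 members were higher (6.35% of tested genes) and 17 lower (10.2%). The median difference was -0.01 in members and -0.04 in tested genes. Every dECM library was below plastic in 38 members (31.9%, against 32.3%) and above it in 24 (20.2%, against 22.7%), shares close to those of all tested genes. Leaving out ASC, or leaving out USC, left 0 members called, while leaving out SDSC gave 7 higher and 9 lower (566 and 697 of all tested genes). Members at least 1 log2 unit from plastic cells numbered 14 higher and 16 lower on ASC dECM (4.84% and 4.66% of tested genes), 12 and 10 on DF (4.45% and 3.65%), 2 and 8 on SDSC (1.36% and 2.43%), and 10 and 14 on USC dECM (3.53% and 4.07%). Plastic cells stood at least 1 above all 4 dECMs in 6 members (5.04%, against 1.27% of tested genes).

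ENSOCUG00000011482 had 43.3 RPKM in plastic cells and 3.92 (ASC), 4.25 (DF), 3.49 (SDSC) and 5.70 (USC) in dECM cells. Plastic stood far above a narrow group of 4, and dECM was lower by a log2 difference of -3.07 (SE 0.30, limma, adjusted p = 0.0106). In pellets the order turned: 295 RPKM after plastic, and 829, 480, 632 and 500 RPKM after ASC, DF, SDSC and USC dECM. All 4 dECM pellets were above plastic, by a mean of 1.01, and that difference was not called (limma, adjusted p = 0.639). Over the alternatives tried, the adjusted p of the cell difference ran from 0.00150 to 0.0598, the upper values with ASC or USC left out.

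ENSOCUG00000022093 was also highest on plastic in cells, with 49.4 RPKM on plastic and 4.85 (ASC), 6.51 (DF), 8.46 (SDSC) and 6.30 (USC) on dECM, a log2 difference of -2.76 (SE 0.28, limma, adjusted p = 0.0115). In pellets its groups overlapped: 209 RPKM after plastic lay between 168 (DF) and 269 (ASC) after dECM. The gap between plastic and dECM cells was thus not seen in the pellets of this gene. One more member, lower on dECM, had 4.93 RPKM on plastic and 0.784 to 1.96 RPKM on dECM, a log2 difference of -1.55 (SE 0.32, limma, adjusted p = 0.0451). In pellets it held 49.6 to 77.8 RPKM, with plastic at 59.3 inside that range. Its adjusted p ran from 0.000531 to 0.183 over the alternatives, and 8 of 11 did not call it.

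ENSOCUG00000026334 was the member called higher on dECM. It had 5.85 RPKM on plastic and 20.7 (ASC), 27.5 (DF), 14.7 (SDSC) and 34.6 (USC) on dECM, a log2 difference of 1.82 (SE 0.37, limma, adjusted p = 0.0451). Plastic was the lowest of the 5, and the dECM cells also differed among themselves. In pellets it held 209 RPKM after plastic and 163 to 246 after dECM, so the groups overlapped. Over the alternatives tried, its adjusted p ran from 0.00491 to 0.167, and 6 of 11 did not call it. These were a pseudocount of 0.1 RPKM (limma, adjusted p = 0.0603), no low filter (0.0928), a variance prior without a trend (0.0510), and leaving out ASC, DF or USC.

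**Figure D4:**
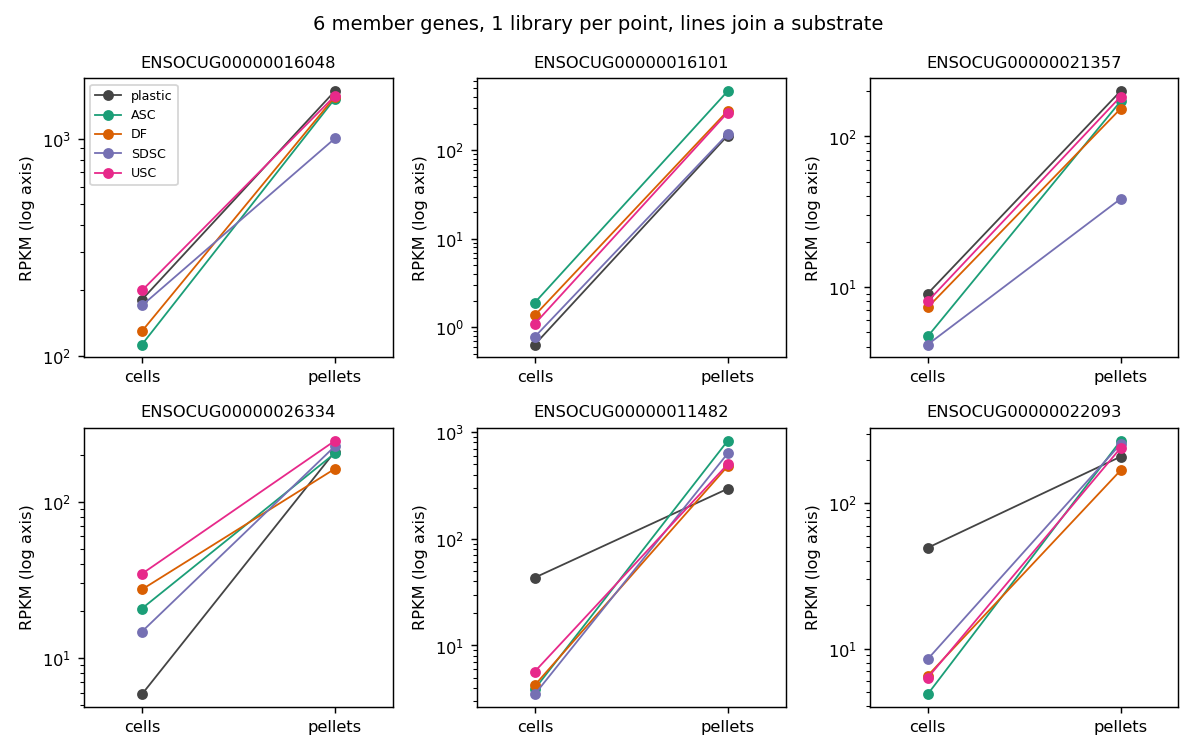
RPKM on log axes in cells and pellets for 6 members, 1 point per library, coloured by substrate, with a line joining the cells and the pellet of a substrate. Plastic cells lie apart in ENSOCUG00000011482 and ENSOCUG00000022093 (43.3 and 49.4 RPKM, above the 4 dECMs) and in ENSOCUG00000026334 (5.85 RPKM, below them), and the SDSC pellet lies apart in ENSOCUG00000021357 (38.5 RPKM).

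**Figure D5:**
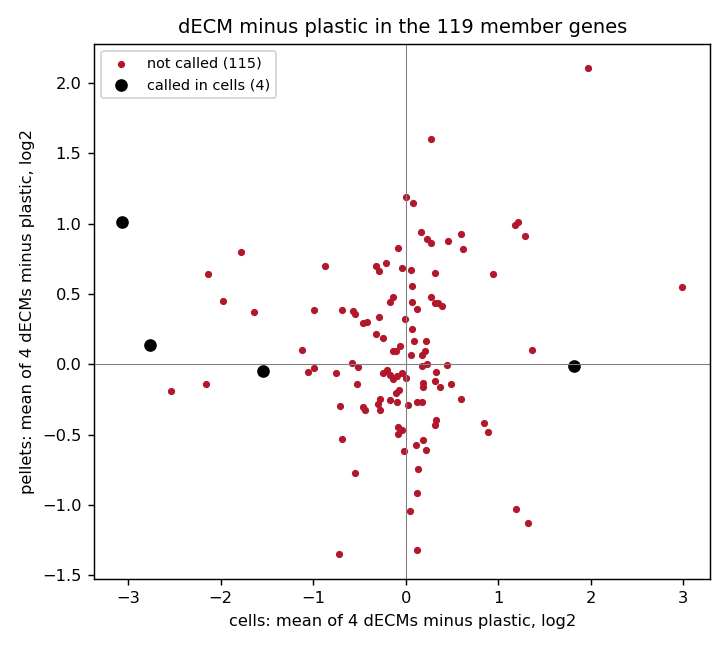
Mean of the 4 dECMs minus plastic in pellets against the same difference in cells, log2 units, 1 point for each of the 119 members; black points are the 4 members called in cells. ENSOCUG00000011482 is the black point at the left (-3.07 in cells, 1.01 in pellets).

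The matrix of urine stem cells was set against the other 3 matrices over both stages. limma called 0 members and 0 of all tested genes. At an unadjusted p under 0.05 there were 3 members (2.52%), 1 higher and 2 lower, against 1.89% of tested genes (1.13% and 0.76%), and limma-voom called 0. The difference was above 0 in 70 members and below in 49, with a median of 0.05, where tested genes had 0.03. The lack of calls does not show that the matrices act alike, since each stage has 1 USC library.

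In a second split among the cells, plastic and SDSC dECM lay on the same side of ASC, DF and USC dECM, counted at a gap of any size. Both plastic and SDSC cells lay above all 3 others in 31 members (26.1%, against 16.4% of tested genes) and below them in 32 (26.9%, against 17.9%). In pellets both lay below the other 3 in 24 members (20.2%, against 5.72% of tested genes) and above them in 5 (4.20%, against 9.98%). None of the 64 falling genes lay below in this way in pellets, and 22 lay above. Few gaps were wide: at least 1 log2 unit in cells in 3 members above and 2 below, against 88 and 110 of 12244 tested genes. In pellets 0 members had such a gap, against 0 tested genes above and 3 below. This split was noticed in the members' values and is a description with no test.

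The lengths of the gene models, which the rule did not use, can be read from the RPKM steps. Members had a median length of 1858 bases and all tested genes of 1803 bases, with quartiles of 946 and 2948 bases in members and 969 and 3016 in tested genes. Under 500 bases were 18 members (15.1%), against 11.8% of tested genes. Of these 18 short members, 9 had no read in plastic cells, against 33 of 1442 short tested genes. A rule on the rise favours genes low in cells, so that comparison is not independent of how members were chosen. In pellets, 7 of the 18 were highest in the DF dECM pellet (38.9%, against 25.6% of short tested genes). Counts of short members were small: a 58-base member had 186 reads over the 5 pellets and 8 over the 5 cell libraries. It stood at 75.6 RPKM after DF and 52.2 after USC dECM, and at 13.5 to 14.9 RPKM in the other 3 pellets. One 327-base member had 102 RPKM after DF dECM and 45.02 after ASC, and 17.5 to 20.8 RPKM in the other pellets, from 5 reads in all 5 cell libraries. Among members of 500 bases or more, DF pellets were highest in 26.7% and SDSC pellets lowest in 48.5%.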

How the data were processed

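The study measured messenger RNA in 10 libraries. Reads were handled with Subread and featureCounts on build OryCun2.0, per the submitters' processing notes; the sources used here give no versions, annotation release or strand setting. The authors deposited log2 values, each equal to log2(RPKM + 1) with 0.0001 added, for 29587 genes.

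The transformation was undone and whole reads were recovered for all 21536 genes above 0. For each library 1 total read number turned the gene lengths implied by the RPKM into whole numbers of bases, so lengths and depths could be read from the values. Reads that share a common factor in all libraries are understated, and recovered reads reached at least 99.989% of the implied totals. A name table for assembly mOryCun1.1 lists 38822 genes, and 0 identifiers matched, so no gene is named and 20 gene lists by symbol were not used.

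Groups were read from the sample titles. Tests used limma 3.58.1 in R 4.3.3 on log2(RPKM + 1), for the 12244 genes whose mean reached 1 RPKM. The variance prior had a trend in level, tests were two-sided, and p was adjusted by Benjamini-Hochberg over all these genes (threshold 0.05). Models had a mean for each stage and class (dECM or plastic; SDSC or other), or stage plus 3 classes for USC. Each gene had 1 spread over both stages. In the models by stage and class, each single plastic or SDSC library was fitted exactly and added nothing to that spread. No stage and substrate has a second library, so p-values measure a spread between substrates. In those models it is the spread of the other substrates, which the single library was assumed to share. Fits were tested on simulated data. Python 3.11.15, numpy 2.4.6, pandas 2.3.3, scipy 1.17.1 and matplotlib 3.10.9 did the rest.

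The members, the comparisons and the lists were chosen with earlier results of these data known. Identifiers were printed by rule: the member with the highest pellet mean, the member with the largest smallest rise, and per tested contrast at most 2 members called higher and 2 called lower. Alternatives covered scaling, pseudocount, filters, the variance prior, limma-voom on recovered reads, a substrate block and leaving out substrates. Per the series' design, pellets were made from the cells of the same substrate. Deviations of cells and pellets of 1 substrate from their stage means correlated across all tested genes from -0.09 (ASC) to 0.24 (SDSC), so the pairing is weak in the data.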

Additional observations from a re-analysis of the deposited data

Results flagged for a closer look

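ENSOCUG00000011482 moved in opposite directions on dECM at the 2 stages. In cells all 4 dECM libraries lay below plastic, by a mean of -3.07 on the log2 scale, and in pellets all 4 lay above it, by a mean of 1.01. The difference between these differences was not tested here, because it is made of the pellet minus cell differences that chose the members. The same crossing, 4 dECMs below plastic in cells and above it in pellets, was found in 7 of 119 members (5.88%) and in 3.98% of tested genes. The reverse crossing was found in 8 members (6.72%) and in 8.58% of tested genes.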

How the results depend on the processing

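Of 207 alternative values for 28 results, 156 stayed close to the main value, 28 moved, and 23 were differences no longer called. A count moved if it changed by more than 1.5-fold or to or from 0, a share if by its SD or more. No difference changed sign, which only the called members and the median SDSC difference could do. The set held 212 genes with a pseudocount of 0.1 RPKM, 223 with a rise of at least 1.5 and 34 with a rise of at least 3. It held from 122 to 161 when a substrate was left out, and each of the larger sets held all 119 members. Rescaling removed members: the set held 101 genes with median-of-ratios scaling, all of them members, and 103 with quantile normalization, 101 of them members. Higher members in dECM cells were 0 with a pseudocount of 0.1 RPKM, 0 without the low filter, 0 with a prior without a trend, and from 0 to 7 with a substrate left out. Over all genes fitted, the same counts were 24, 31, 48, and from 0 to 566. Lower ones were 5 with limma-voom (233 of all genes fitted) and from 0 to 9 with a substrate left out (from 0 to 697). Lower members in SDSC dECM pellets were 2 without the low filter, 0 with a prior without a trend, 0 with limma-voom, and from 0 to 8 with a substrate left out. Over all genes fitted, these were 43, 0, 0, and from 0 to 62. The share of RPKM was 0.0966% in cells and 1.67% in pellets without the most abundant member, and 0.169% and 2.40% of reads. With median-of-ratios scaling, 8 members were higher and 0 lower in USC dECM than in plastic pellets, and SDSC dECM had 16 higher and 16 lower in place of 14 and 20. Members spanning at least 1 in pellets were from 36 to 63, and the median SDSC difference from -0.43 to -0.40, with a substrate left out; these and the counts of lowest pellets and of unadjusted p were added after the data were seen. With the substrate as a replicate block, the calls were as without it, 1 higher and 3 lower member in cells, 1 lower in SDSC pellets and 0 elsewhere, with consensus correlations from -0.13 to 0.02. Few reads limit the short and the cell-silent members, and 1 library per substrate limits all of them.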

Other observations

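A further 87 genes rose by at least 2 on the log2 scale in 4 of the 5 substrates. The substrate they missed was plastic in 42 genes and SDSC dECM in 34, and ASC dECM in 3, DF dECM in 3 and USC dECM in 5. These genes are outside the set described above, and their number per substrate depends on the same single libraries.

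Across the 119 members, how far a cell library lay from the mean of its stage correlated with the same measure in its own pellet at 0.41 for DF dECM and 0.28 for SDSC dECM, and at 0.05 (plastic), -0.02 (ASC) and 0.04 (USC). Over all tested genes the values were 0.14 (DF), 0.24 (SDSC), 0.09 (plastic), -0.09 (ASC) and -0.03 (USC). The rule ties a member's pellet level to its cell level in each substrate, so the members' values are partly set by their selection. All these values are across genes, which share their libraries and are not independent replicates.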
